A study of Homo sapiens with 6 samples.

Results

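NOTCH1, DLK1, HES1, HES6, HEY1, ID1, ID2, ID3, ID4 and TLE1 are 10 regulators of whether a neural precursor keeps dividing or differentiates. They were taken by name, with every probe set that the platform annotation gives to exactly 1 of these symbols, and all 10 are among the 18132 genes on the array. The cells were SH-SY5Y, which derive from a human neuroblastoma and keep sympathetic neuroblast features, and their medium was MEM mixed with F12 plus serum. The manganese group is 3 cultures given 100 µM manganese for 24 h, a fraction of the median lethal concentration per the labels, and the control group is 3 untreated cultures. Values are log2 RMA signals, a scale on which 1 unit is a doubling, and every difference below is manganese minus control. All come from 1 tumour-derived line, and the labels call the arrays biological replicates without saying whether the cultures were started apart. The p-values therefore set each difference against the spread between arrays of the same group, and cover these 6 arrays only.

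In Notch signalling a ligand on one cell makes a neighbour's receptor release its intracellular domain, which joins the DNA-binding protein RBPJ and switches on repressors of the HES and HEY families. HES repressors recruit corepressors of the Groucho family, such as TLE1, and hold back proneural factors. ID proteins, which are induced by BMP and SMAD signalling among other inputs, have a helix-loop-helix but no DNA-binding region. They tie up the E proteins that proneural factors need as partners. Neuroblastoma cells carry parts of both systems, and the delta-like protein DLK1 is a marker of neuroendocrine and sympathoadrenal cells.

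None of the 10 genes passed the threshold of an adjusted p of 0.05, the criterion that 0.142% of the 13407 genes tested met (limma, Benjamini-Hochberg adjustment over all genes). At an unadjusted p under 0.05 there were 4 of the 10, against 12.8% of all genes. They were DLK1, ID1 and ID2, which were higher in manganese, as 5.97% of all genes were at that p, and TLE1, which was lower, as 6.85% were. The 3 manganese arrays lay wholly above the controls for DLK1, HES1, ID1 and ID2 and wholly below them for TLE1, which makes 5 of 10 with no overlap, against 19.8% of all genes (10.5% higher and 9.26% lower). The median difference of the 10 was 0.18, beside 0.02 over all genes tested. Both shares describe genes that were named with earlier results of these data known.

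The control arrays differed among themselves in a way that touches these genes. Poly(A) control RNA that is added before labelling is read by 12 probe sets, which averaged 7.60 to 7.75 on the manganese arrays, against 6.04 on control 1, 7.59 on control 2 and 5.83 on control 3. Of the controls, number 2 alone matched the manganese arrays in this respect, and the difference from control 2 alone is given for each of the 10 genes and for most other genes named. Against control 2 the median of the 10 genes was 0.015, with 5 genes higher and 5 lower, beside 0.0068 over all genes. Without control 1 the median was 0.032, and without control 2 it was 0.31. The part of spike-in level in these differences was not tested beyond those values.

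Known identity markers were read as a check of the label. All 10 measured noradrenergic neuroblast markers of 11 listed passed the filter on dim probe sets, and their mean signal was 11.20 to 11.27 on manganese arrays, against 11.37 to 11.48 on controls. The mesenchymal-type list had 6 of 10 members above the filter, and all 10 together had means of 6.00 to 6.13 in manganese and 5.85 to 6.08 in control. CD44, YAP1, IL13RA1 and MEOX2 of that list were too dim. The Schwann and glial list averaged 5.70 to 5.86 in manganese and 5.75 to 5.88 in control, and the fibroblast list averaged 5.34 to 5.44 in manganese and 5.33 to 5.42 in control. So the mean of the noradrenergic list was lower with no overlap of the groups, while those of the other 3 lists overlapped. STMN2, ISL1 and TFAP2B had the largest differences of that list, at -0.71, -0.58 and -0.36, or -0.27, -0.26 and -0.17 against control 2. GATA2 and HAND2 were at -0.04 and -0.03, and PHOX2A and TH at 0.22 and 0.12. Of the 10, 2 had an unadjusted p under 0.05 (limma), beside 12.8% of all genes. The groups did not overlap for 2 of the 10, beside 19.8% of all genes. In bulk RNA a change in the share of cells of a kind and a change per cell cannot be told apart.

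**Figure D1:**
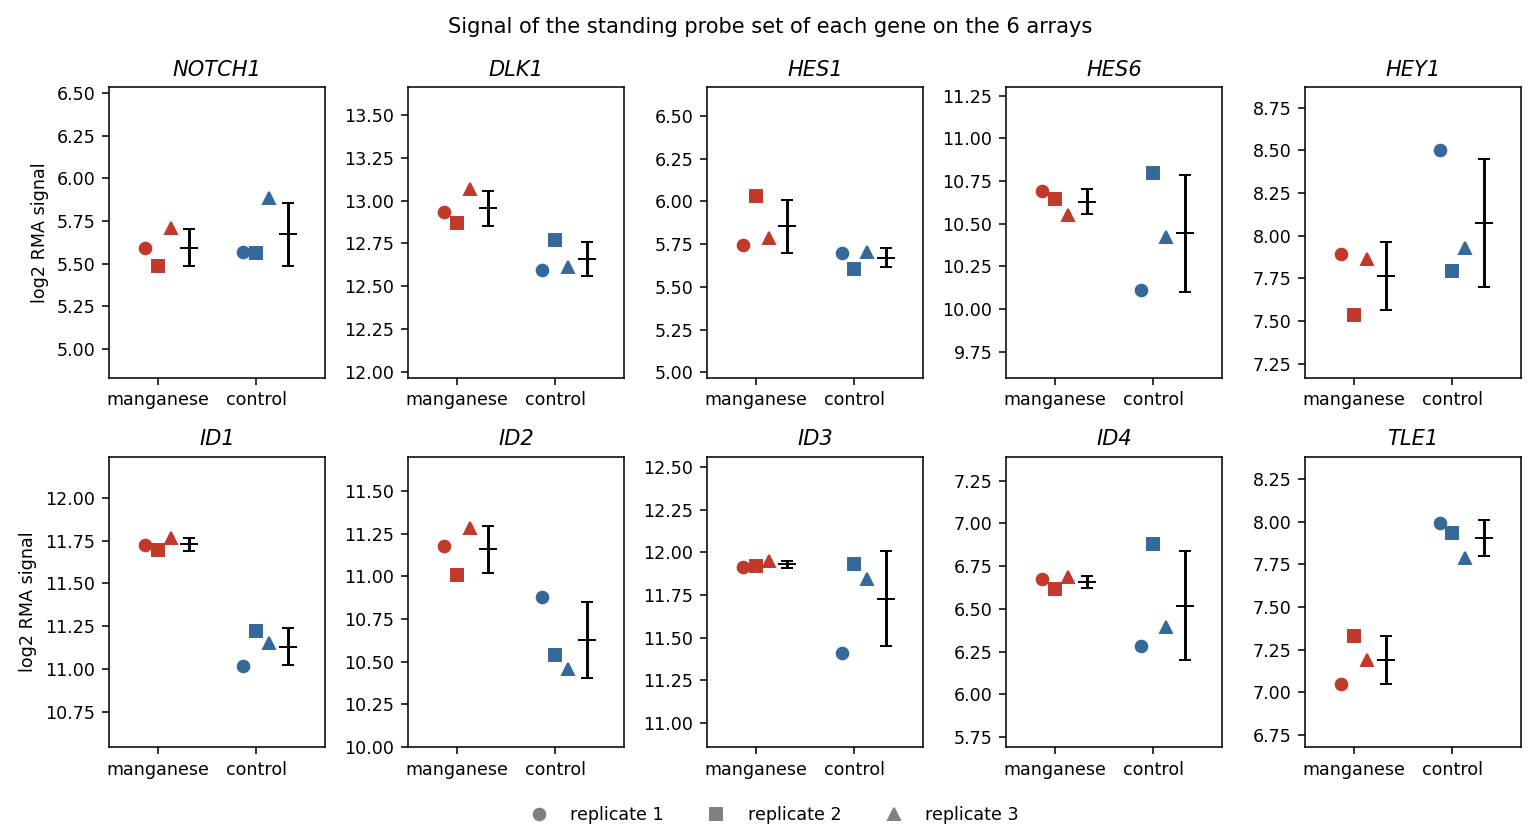
Log2 RMA signal (y axis, a span of 1.7 in every panel) of the probe set that stands for each gene on the 3 manganese arrays (red) and the 3 control arrays (blue), with the mean and SD (n = 3) to the right of each group. ID1, ID2, DLK1 and HES1 lie higher and TLE1 lower with no overlap, and control 1 is the lowest array for HES6, ID3 and ID4 and the highest for HEY1.

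NOTCH1, the receptor, was read by 3 probe sets that did not move together. The brightest gave 5.59, 5.49 and 5.71 in manganese and 5.57, 5.56 and 5.88 in control, so the groups overlapped. Its difference was -0.08 with a 95% interval of -0.37 to 0.22 and a limma adjusted p of 0.833, and it was 0.03 against control 2. The second probe set was higher in manganese with no overlap, at 5.70, 5.81 and 5.61 against 5.55, 5.33 and 5.46. That second difference was 0.26 with an adjusted p of 0.403 over the 27411 probe sets tested, and it was 0.37 against control 2. The third differed by -0.07. Which sign NOTCH1 takes therefore rests on the probe set.

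DLK1, a delta-like transmembrane protein that lacks the domain by which the canonical ligands bind Notch, was higher in manganese on all 4 of its probe sets with no overlap. The brightest probe set read 12.94, 12.87 and 13.07 in manganese and 12.59, 12.77 and 12.61 in control. Its difference of 0.30 ± 0.11 (SE) had an adjusted p of 0.345, and it was 0.19 against control 2. This probe set sat near the top of the arrays, whose highest signals were 14.34 to 14.38. The other probe sets, with signals from 6.36 to 7.94, differed by 0.70, 0.75 and 0.80, with adjusted p between 0.207 and 0.230. Their differences from control 2 were 0.42, 0.50 and 0.55. Manganese 3 was the highest array on each of the 4 DLK1 probe sets, and control 2 was the highest control. All 4 carry the suffix that marks probes which may also match other transcripts, and whether signal near the top of the range or shared probes set the size of the difference was not tested.

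HES1, the repressor most directly driven by the Notch intracellular domain, is shown with its promoter because it is the standard readout of RBPJ activity. The 250 bases before its start (RefSeq, GRCh38.p14, chr3:194135898-194136147, plus strand) are given with the RBPJ core TGGGAA and the N-box CACNAG, the site that HES proteins bind, in capitals on either strand.
HES1: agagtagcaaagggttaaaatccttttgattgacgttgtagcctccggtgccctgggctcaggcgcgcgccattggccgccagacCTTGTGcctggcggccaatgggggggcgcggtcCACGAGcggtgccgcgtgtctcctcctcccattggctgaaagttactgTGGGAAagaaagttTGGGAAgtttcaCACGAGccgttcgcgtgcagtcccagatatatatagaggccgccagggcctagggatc
The window holds 2 RBPJ cores, 84 and 70 bases before the start, and 3 N-boxes, 165, 132 and 58 bases before it. Of 35116 RefSeq promoters 20.8% hold the RBPJ core in that window and 32% the N-box. HES1 was the only 1 of the 8 matched promoters with an RBPJ core, but those of HEY1 and DLK1 were not searched.

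On the arrays HES1 showed no common direction. Its brightest probe set read 5.75, 6.03 and 5.79 in manganese, against 5.70, 5.61 and 5.70 in control. The lowest manganese array was thus 0.04 above the highest control, and the difference of 0.18 had a 95% interval of -0.08 to 0.45 and an adjusted p of 0.522. It was 0.25 against control 2. A second probe set was lower in manganese, at 4.86, 4.96 and 4.96 against 4.97, 5.04 and 4.97, a difference of -0.06 (-0.11 against control 2). The third tested one differed by 0.01, and by -0.20 against control 2. The remaining 2 HES1 probe sets lay below the 40th percentile on at least 5 of 6 arrays, differed by 0.14 and 0.21, and were not tested.

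HES6, a relative that opposes HES1 and favours neuronal differentiation, had a single probe set. It read 10.69, 10.65 and 10.55 in manganese and 10.11, 10.80 and 10.42 in control. The manganese arrays lay inside the range of the controls, and the difference of 0.19 (95% interval -0.21 to 0.58, adjusted p 0.666) was -0.17 against control 2. HEY1, another RBPJ-driven repressor, read 7.89, 7.54 and 7.86 in manganese and 8.50, 7.79 and 7.93 in control. Its difference of -0.31 (95% interval -0.77 to 0.15, adjusted p 0.526) was -0.03 against control 2 and -0.10 without control 1. The second HEY1 probe set differed by -0.11. For both genes control 1 was the array farthest from the rest.

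All 3 probe sets of ID1 were wholly higher in manganese. Its brightest probe set read 11.72, 11.69 and 11.77 in manganese, against 11.01, 11.22 and 11.15 in control. The lowest manganese array exceeded the highest control by more than the spread within either group (SD 0.04 and 0.11, n = 3). The difference of 0.60 ± 0.11 (SE, 95% interval 0.36 to 0.84), a fold of 1.51, had an adjusted p of 0.111 and did not pass. The other 2 probe sets gave 0.70 and 0.69, each with an adjusted p of 0.108. Against control 2 the 3 probe sets gave 0.50, 0.62 and 0.60.

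ID2 followed with a difference of 0.53 ± 0.14 (SE, 95% interval 0.20 to 0.86), a fold of 1.45 and an adjusted p of 0.245. Its brightest probe set read 11.18, 11.01 and 11.28 in manganese and 10.88, 10.54 and 10.46 in control. Control 1 was the highest control for ID2 and the lowest for ID1. The second ID2 probe set differed by 0.50, with overlap because control 1 at 10.67 exceeded manganese 2 at 10.58. Both ID2 probe sets gave 0.62 against control 2. Both ID2 probe sets, the brightest of ID1 and 2 of the 3 of ID3 carry suffixes that mark probes which may match other transcripts.

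The 250 bases before the starts of ID1 (chr20:31605039-31605288) and ID2 (chr2:8681806-8682055), both on the plus strand of GRCh38.p14 (RefSeq), are shown since these were the 2 ID genes that stood higher with no overlap. Capitals mark CCAAT, the GC box GGGCGG and the TATA box TATAAA on either strand, general promoter elements, and where such runs touch or overlap they merge.
ID1: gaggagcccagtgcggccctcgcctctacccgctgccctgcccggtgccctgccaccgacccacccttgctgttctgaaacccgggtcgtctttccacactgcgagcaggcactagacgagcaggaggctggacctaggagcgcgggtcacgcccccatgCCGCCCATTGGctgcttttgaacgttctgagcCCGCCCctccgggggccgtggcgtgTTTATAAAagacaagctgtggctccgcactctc
ID2: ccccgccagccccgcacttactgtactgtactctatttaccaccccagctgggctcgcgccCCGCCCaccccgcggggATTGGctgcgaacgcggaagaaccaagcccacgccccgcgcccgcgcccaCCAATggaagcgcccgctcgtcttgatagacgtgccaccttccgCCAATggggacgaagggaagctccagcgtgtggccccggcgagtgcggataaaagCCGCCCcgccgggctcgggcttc
ID1 holds 1 CCAAT, 2 GC boxes and a TATA box that reads on both strands, and ID2 holds 3 CCAAT and 2 GC boxes. ID1 has no E-box CANNTG in this window and ID2 has 1, while 61.8% of all promoters have at least 1. Neither window holds the CRE half-site TGACG, found in 21.2% of all promoters, or the SMAD-type box GGCGCC, found in 16.4%. Sequence farther from the start was not searched, so sites there are not covered. CCAAT stood in 6 of the 8 matched promoters, against 32% of all promoters, and was added to the search after the ID1 sequence had been seen. The GC box, GGGCGG, also stood in 6 of 8, against 42.6% of all.

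For ID3 and ID4 the difference of the brightest probe set was smaller than the SD of the controls (0.28 for ID3 and 0.32 for ID4, n = 3). ID3 read 11.92, 11.92 and 11.95 in manganese and 11.41, 11.93 and 11.84 in control, so control 1 alone lay apart. Its 3 probe sets differed by 0.20, 0.27 and 0.14, and by -0.00038, -0.031 and -0.05 against control 2. Without control 1 the difference of the brightest was 0.04. ID4 read 6.67, 6.62 and 6.68 in manganese and 6.28, 6.88 and 6.39 in control, with control 2 the highest of all arrays. Its difference of 0.14 had a 95% interval of -0.23 to 0.51 and became -0.22 against control 2. A second ID4 probe set gave 7.06, 6.76 and 6.89 against 6.23, 6.79 and 5.79, a difference of 0.63 with an adjusted p of 0.355 and 0.11 against control 2. The third differed by 0.04, and the remaining one was too dim to test. On the second ID4 probe set controls 1 and 3, the arrays with low spike-in signal, were the lowest of the 6. Control 2 lay within the range of the manganese arrays. The part of spike-in level in that larger value was not tested.

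TLE1, a Groucho corepressor that HES proteins recruit, was the only 1 of the 10 genes whose brightest probe set had the manganese arrays wholly below the controls. It was read by a single probe set, at 7.05, 7.33 and 7.19 in manganese, against 7.99, 7.93 and 7.79 in control. The highest manganese array lay 0.46 below the lowest control. The difference of -0.71 ± 0.12 (SE, 95% interval -0.99 to -0.44), a fold of 0.61, had an adjusted p of 0.107 and did not pass, ranking 40 of 13407 by p. It was -0.74 against control 2. Leaving out any 1 array gave -0.78 to -0.64.
The TLE1 promoter (chr9:81689548-81689797, minus strand, GRCh38.p14, RefSeq) is shown with the same 3 elements in capitals, for comparison with ID1 and ID2, which differed in the other direction.
TLE1: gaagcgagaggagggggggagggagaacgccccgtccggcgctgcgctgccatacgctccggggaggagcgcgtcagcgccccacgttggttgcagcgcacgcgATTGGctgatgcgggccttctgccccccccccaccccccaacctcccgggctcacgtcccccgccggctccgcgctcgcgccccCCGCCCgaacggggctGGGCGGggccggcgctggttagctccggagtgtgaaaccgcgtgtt
It holds 1 CCAAT and 2 GC boxes and neither an RBPJ core nor an N-box. Unlike ID1 and ID2 it also holds a CRE half-site, 179 bases before the start. The promoters of HES1 and ID3, whose brightest probe sets had positive differences, hold this half-site too. It stood in 3 of the 8 matched promoters, against 21.2% of all. Its G and C share is 75.2%, beside 66% for ID1, 69.2% for ID2 and 59.2% for HES1.

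**Figure D2:**
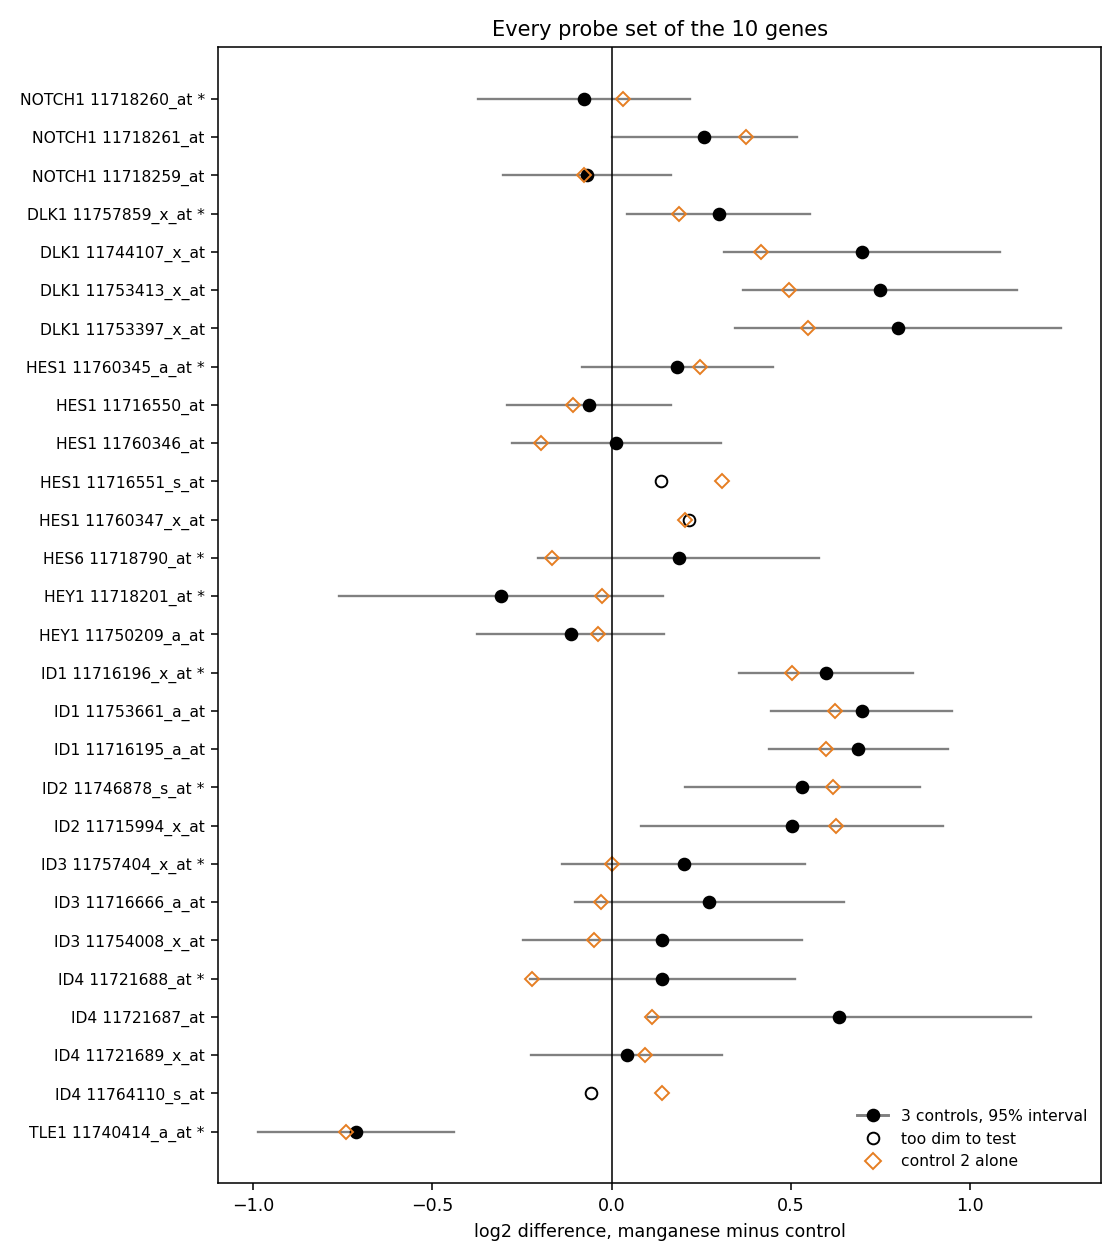
Log2 difference, manganese minus control (x axis), of all 28 probe sets of the 10 genes (rows, brightest first within a gene, the one that stands for the gene starred), with 95% limma intervals against the 3 controls (filled circles), the 3 probe sets too dim to test (open circles) and the value against control 2 alone (diamonds). ID1, ID2, DLK1 and TLE1 keep their side of 0 with both sets of controls, while HES6, ID3 and the brightest ID4 and NOTCH1 probe sets are among those that cross it.

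Of the 28 probe sets 25 passed the filter, and none of these passed the threshold (limma, adjusted over 27411 probe sets, 0.0839% of which did), with 12 at an unadjusted p under 0.05 against 12.4% of all. Among the 25 there were 10 wholly higher and 2 wholly lower in manganese, beside 9.39% of all tested probe sets wholly higher and 9.53% wholly lower. Of the 10 higher ones, 7 belong to ID1 and DLK1, so these are not independent readings. With housekeeping genes as the scale, 3 DLK1 probe sets and 1 of ID1 passed, as given with the other settings.

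**Figure D3:**
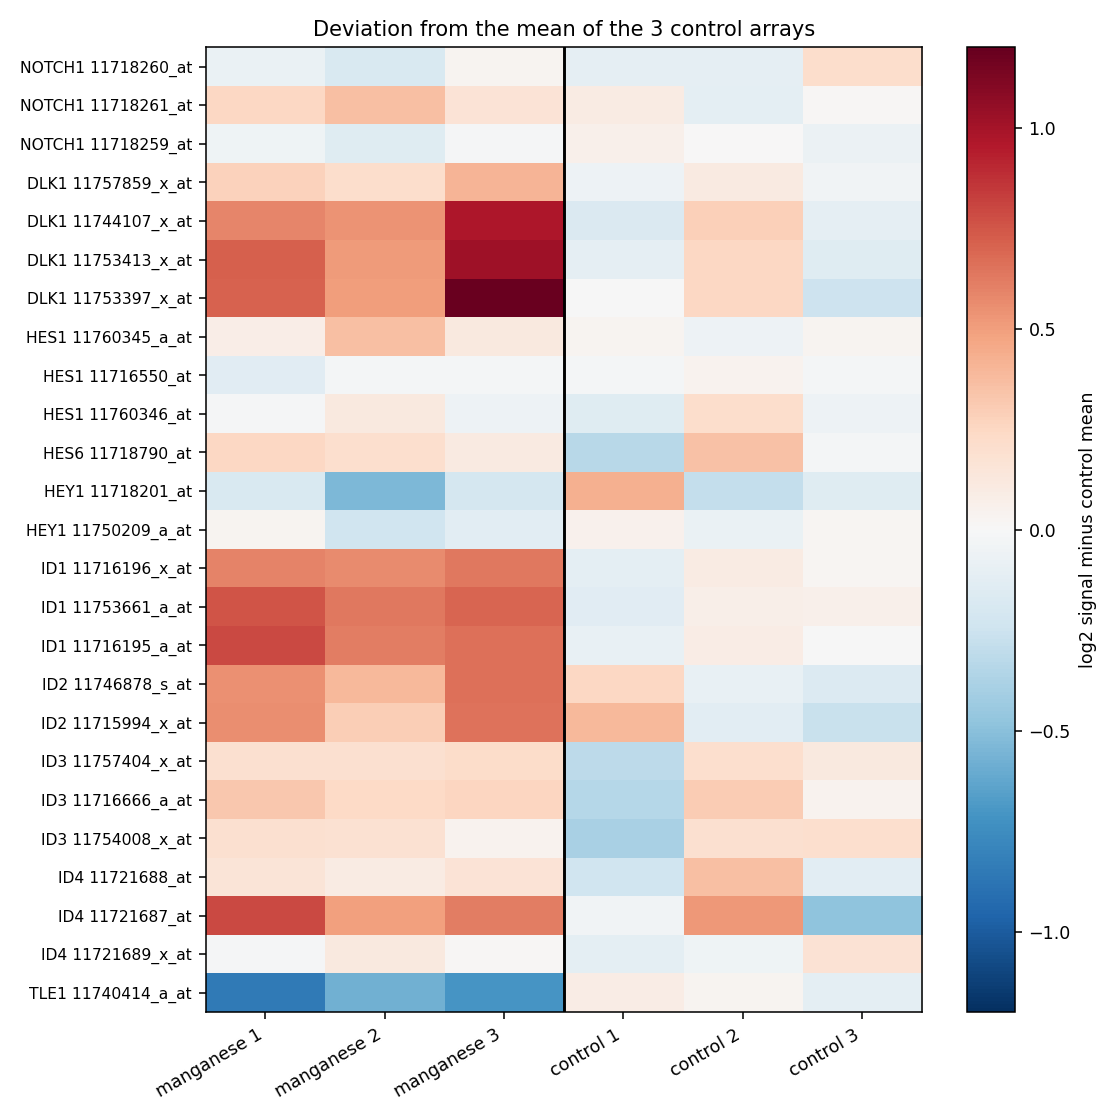
Log2 signal of the 25 tested probe sets (rows) on each array (columns, manganese left of the line) minus the mean of the 3 controls, on a colour scale from -1.2 to 1.2. The ID1, ID2 and DLK1 rows are red on all 3 manganese arrays and the TLE1 row is blue, whereas the HES6 and ID3 rows are bluest on control 1.

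Across the 6 arrays, which fall into 2 groups, Pearson r between pairs of the 10 genes is given as a description. ID1 ran with DLK1 (0.94) and ID2 (0.79) and against TLE1 (-0.96). HES6 ran with ID4 (0.93) and ID3 (0.90), and HEY1 ran against ID3 (-0.91) and HES6 (-0.85). ID3 and ID4 also ran with DLK1, at 0.68 and 0.65. For NOTCH1 the values lay between -0.36 and 0.12, and for HES1 between -0.55 and 0.61. The genes with the profile most like ID1 were AQP10, a water and glycerol channel (r = 0.997), and H2BC6, a histone H2B gene (r = 0.997). For ID2 they were KLF10, a TGF-beta-inducible zinc finger factor (r = 0.99), and CD9, a tetraspanin (r = 0.99). For TLE1 they were ITIH4 (r = 0.99) and CWC25, a splicing factor (r = 0.99). With 6 arrays many genes reach such values.

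The wider pathway was read from 9 lists of 119 genes, of which 112 are on the array and 88 were bright enough to test. None passed the threshold (limma, smallest adjusted p 0.251). Of the 88, 7 were higher and 6 lower with an unadjusted p under 0.05, beside 5.97% of all genes higher and 6.85% lower. The groups did not overlap for 13 of the 88, against 19.8% of all genes. The median difference was 0.019, beside 0.02 over all genes.

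Among the ligands and the other receptors, CNTN1 alone had groups with no overlap. Of 7 ligands tested 5 were positive and 2 negative, with differences from -0.09 to 0.42. The top value was that of CNTN1, an adhesion protein reported as a Notch ligand in rodents, at 0.42 (adjusted p 0.350, 0.60 against control 2). DLL1 differed by 0.10 (-0.07 against control 2) and DLL3, a ligand that blocks Notch in its own cell, by -0.09 (-0.33). NOTCH4, NOTCH3 and NOTCH2 differed by 0.23, 0.09 and 0.03, all with overlap, and by -0.0019, 0.11 and 0.04 against control 2. Among 23 processing and trafficking genes 14 were positive and 9 negative. POGLUT1, which adds glucose to Notch repeats, gave -0.81 (adjusted p 0.289) but -0.33 against control 2. RFNG, a fringe glycosyltransferase, was at 0.40 but 0.03 against control 2, and PSEN2, a catalytic subunit of gamma-secretase, at -0.34 and -0.63.

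In the nuclear arm most genes were negative against the 3 controls, with medians near 0 against control 2. In the RBPJ complex 6 of 9 genes were negative, with a median of -0.31 that was -0.00087 against control 2. RBPJ itself read 6.81, 7.42 and 7.57 in manganese and 8.10, 7.27 and 7.80 in control, with overlap, a difference of -0.46 that was -0.00087 against control 2. MAML1 and MAML3, coactivators of the Mastermind family, were at -0.37 and -0.35, or -0.24 and -0.14 against control 2, and CCNC, cyclin C, at 0.71 and 0.67. Of 11 corepressors 8 were negative, with a median of -0.20 and -0.03 against control 2. SPEN, an RBPJ corepressor, was at -0.71 (adjusted p 0.332) and -0.23 against control 2, and HDAC2, a histone deacetylase, at 0.40 with either set of controls. TLE4, a paralogue of TLE1, read at most 6.998 on the manganese arrays and at least 7.13 on the controls, a difference of -0.45 (adjusted p 0.350) with no overlap and -0.30 against control 2. TLE3 differed by -0.20 (-0.05 against control 2), TLE2 by 0.09 and TLE5, the short Groucho protein, by 0.01.

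Other HES and HEY genes and Notch targets were split, 6 positive and 5 negative of 11. MYC, a growth-promoting factor, gave 10.79, 10.76 and 10.75 in manganese and 11.11, 11.31 and 11.07 in control, a difference of -0.40 (adjusted p 0.251) with no overlap and -0.55 against control 2. BHLHE40, a stress-responsive repressor related to HES, differed by 0.35 (adjusted p 0.274) with no overlap and 0.32 against control 2. HES4 differed by 0.32, and by 0.05 against control 2. The partners that ID proteins bind, TCF3, TCF4 and TCF12, differed by 0.10, -0.19 and 0.09, and by 0.18, 0.12 and 0.57 against control 2. Of 17 proneural and neural factors on the array 10 were too dim to test, and of the 7 others 5 were positive, led by ATOH8 at 0.28, NEUROD2 at 0.28 and NHLH1 at 0.07.

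The BMP and SMAD list, whose pathway drives ID genes in many cells, had 10 of 14 tested genes positive and a median of 0.13, with 0.24 against control 2. SMAD1, a transducer of BMP signals, read 7.12, 6.90 and 7.51 in manganese and 6.92, 6.23 and 6.48 in control, a difference of 0.63 (adjusted p 0.319) with overlap and 0.95 against control 2. SMAD6, an inhibitory SMAD, differed by 0.36 (adjusted p 0.351) with no overlap, and by 0.14 against control 2. ACVR2B, a type II receptor, was at -0.55 and -0.17 against control 2. None of the 14 passed, while 3 were higher and 1 was lower at an unadjusted p under 0.05, beside 5.97% and 6.85% of all genes. VIM, of the mesenchymal-type markers, was higher with no overlap beside ID1 and ID2, at 11.33, 11.02 and 11.40 in manganese and 10.71, 10.50 and 10.21 in control (difference 0.77, adjusted p 0.152, 0.75 against control 2). The other 5 tested members of that list went both ways, with SNAI2 at 0.25, COL1A1 at 0.12, TWIST1 at 0.02, PRRX1 at -0.12 and FN1 at -0.49, and the list median was 0.07. VIM was named after its value was seen, and its part in the ID values was not tested.

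**Figure D4:**
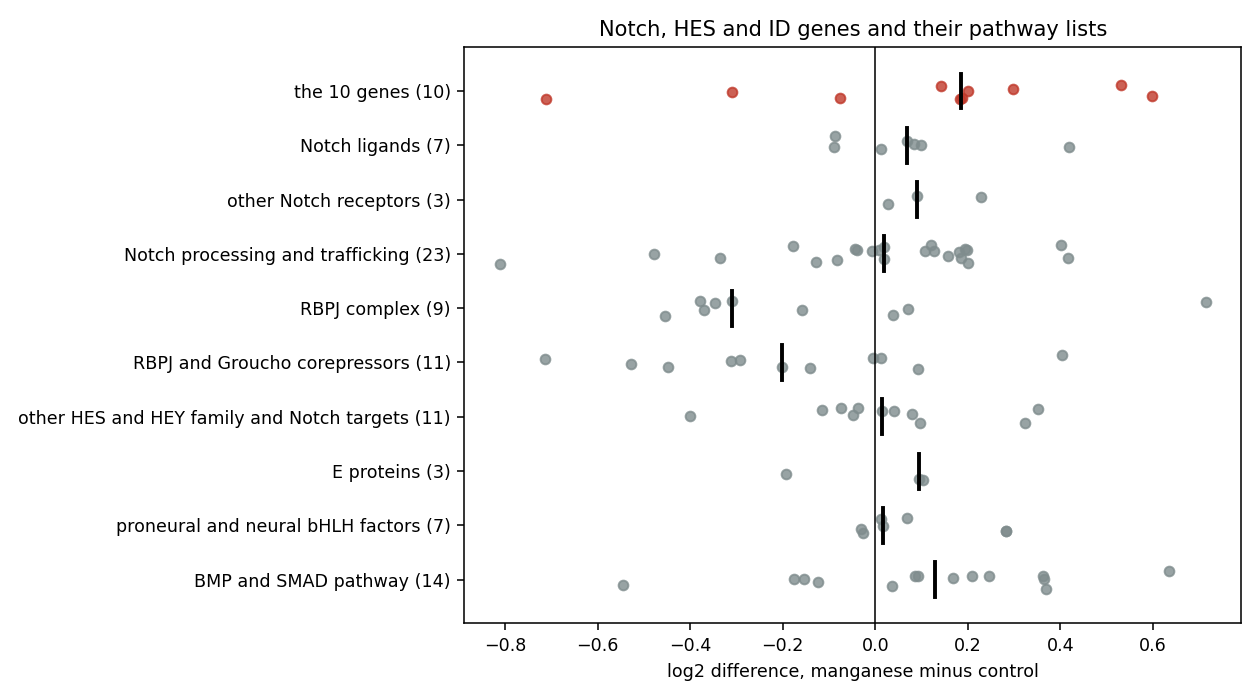
Log2 difference, manganese minus control (x axis), of every tested gene in the 10 genes (red) and in 9 pathway lists (grey), 1 point a gene, with the number of genes in brackets and the median as a black bar. The medians of the 10 genes and of the BMP list are 0.18 and 0.13, and those of the RBPJ complex and the corepressors are -0.31 and -0.20.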

How the data were processed

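The authors deposited log2 RMA values for 49395 probe sets of 6 one-colour Affymetrix arrays, made with RMA in Expression Console (Affymetrix) according to the labels. Its version is not given in the sources used here. RMA sets all arrays to 1 distribution, which removes shifts shared by most genes. The platform annotation gives 1 gene symbol for 44988 probe sets, and 44961 of them matched RefSeq genes by Entrez number.

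Probe sets above the array's 40th percentile on 3 or more of the 6 arrays were tested, and the brightest kept probe set stood for each of 13407 genes. A second fit used all 27411 kept probe sets with 1 symbol. Both used limma 3.58.1 under R 4.3.3 (functions lmFit and eBayes, group as the only term, two-sided, Benjamini-Hochberg adjustment over all features, threshold 0.05), and were tested on simulated arrays. Arrays give no counting depth, so their number limits the precision.

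The 10 genes and all lists were chosen with earlier results of these data known. Every probe set of the 10 genes is reported. From each pathway list the genes past the threshold, otherwise up to 3 with the smallest unadjusted p, are named, and TLE2, TLE3, TLE5, RBPJ, the partners of ID proteins and the marker genes given with values were named beyond the rule after their values were seen. Profile likeness was read for the 3 genes with the smallest p. The 16 alternatives changed the filter, variance model, array weights, scaling, probe set rule, replicate block and control arrays, and left out each array in turn. Promoters from RefSeq were matched by symbol for 8 of the 10 genes, all but DLK1 and HEY1. Chromosome 8 was left out of that match but not out of the shares over all promoters. Some listed genes are not analysed here.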

Additional observations from a re-analysis of the deposited data

How the results depend on the processing

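ID1, ID2, DLK1, HES1, HEY1 and TLE1 kept their direction under all 16 alternatives. For all of these but HEY1 the groups did not overlap, so leaving out an array or using control 2 alone could not change the sign. Changes of the filter, the variance model and the replicate block left each difference as it was. Most of the alternatives were therefore no test of the direction. Differences ranged from 0.50 to 0.66 for ID1, 0.45 to 0.66 for ID2, 0.19 to 0.64 for DLK1 and -0.78 to -0.58 for TLE1. NOTCH1 turned to 0.037 with the mean of its probe sets and to 0.031 with spike-in level as a term or against control 2 alone, and it ranged from -0.13 to 0.029 when 1 array was left out (positive without control 3). With spike-in level as a term or against control 2 alone, HES6 turned to -0.17, ID3 to -0.00038 and ID4 to -0.22. These 2 settings give the same differences by construction, since control 2 is the only control at that spike-in level. In both, the median of the 10 genes moved to 0.015, and it ranged from 0.032 (without control 1) to 0.31 (without control 2) when 1 array was left out. None of the 10 genes passed the threshold except with array weights, a limma fit that stopped before convergence and called 3945 genes. Among them were 5 of the 10 genes (NOTCH1 at -0.30, DLK1, ID1, ID2 and TLE1). In the fit over single probe sets the weights called 12 of the 25 tested probe sets of the 10 genes. These did not all match the calls by gene. The only NOTCH1 probe set called was not the brightest and had the opposite sign, at 0.28, and an ID4 probe set was called at 0.99. Without array weights the lowest limma adjusted p was 0.0551 for ID1 and 0.0617 for TLE1. Both came from leaving out control 2, the only control that matched the manganese arrays in spike-in signal. With spike-in level as a term they were 0.999 and 0.958. Centring on 9 housekeeping genes called 195 genes and 4 probe sets, 3 of DLK1 and 1 of ID1, against 19 genes in the reported fit. That scale was itself unsteady, since the 9 genes averaged 10.40 on control 1, 10.09 on control 2 and 9.97 on control 3. On the manganese arrays they averaged 10.03 to 10.19. The count of 19 was 2 with spike-in level as a term and 5 against control 2 alone, where the lone control takes its spread from the manganese arrays. Leaving out 1 array gave 0 to 43 genes. It was 0 by limma without control 3 or any 1 manganese array, with 832 to 1223 at an unadjusted p under 0.05, and 43 without control 2. The replicate block gave 6 genes and none of the 10. Deviations of same-numbered arrays from their group means correlated at -0.30, 0.15 and -0.27, beside -0.44 to 0.50 for arrays with unlike numbers. These values show no pairing by number. With 3 arrays a group they cannot exclude that same-numbered cultures were handled together. The probe set rule has no counterpart for the fit over single probe sets. The number of arrays limits the precision, and signals near the 40th percentile, about 4.4, limit the dim HES1 and ID4 probe sets. The cause of these shifts was not tested.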
